A study of Mus musculus with 8 samples.

Results

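The 4 gap junction genes Gjb1, Gjc3, Gja1 and Gjb6 were read out of a table of 41128 genes by their symbols. Gjb1 and Gjc3 are connexin genes of oligodendrocytes, and Gja1 and Gjb6 are connexin genes of astrocytes. RNA-seq had been made from the corpus callosum of LAQ mice (4 libraries, numbered 5 to 8) and of control mice (4 libraries, numbered 1 to 4). All 8 mice were PLP-150Q, a Huntington's disease model in which the PLP promoter drives a mutant huntingtin fragment in oligodendrocytes, so the controls carried the transgene too and no wild-type group is in the comparison. Treatment began at 3 months of age and lasted 2 months, with LAQ at 5 mg/kg in one group and purified water in the other, and all mice were 5 months old at the end. The abbreviation LAQ is commonly used for laquinimod, an immunomodulatory drug. The question is which genes of this white matter tract differ in level after the treatment.

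Connexins are membrane proteins that assemble into hexameric channels, and the channels of neighbouring cells dock to form gap junctions through which ions and small molecules pass. In white matter, gap junctions join astrocytes to each other and to oligodendrocytes, and this glial network is known for carrying away the potassium that firing axons release. The oligodendrocyte protein of Gjb1 (Cx32) is known to dock with the astrocyte protein of Gjb6 (Cx30), and Gja1 encodes the main connexin of astrocytes (Cx43). Gjb1 also forms channels between layers of one myelin sheath, and its mutations cause X-linked Charcot-Marie-Tooth neuropathy. Gjc3 (Cx29) encodes a protein of the innermost myelin membrane along the axon.

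In GRCm38 with the GENCODE M21 annotation, Gjb1 (ENSMUSG00000047797.14) lies on the forward strand of chromosome X from 101376378 to 101385629. Gjc3 (ENSMUSG00000056966.7) lies on the reverse strand of chromosome 5 from 137953461 to 137963098. Gja1 (ENSMUSG00000050953.10) lies on the forward strand of chromosome 10 from 56377330 to 56402513, and Gjb6 (ENSMUSG00000040055.9) on the reverse strand of chromosome 14 from 57123303 to 57133611. All 4 are annotated as protein-coding, and 0 annotated genes overlap any of them on either strand. RefSeq lists 4 transcription starts for Gjb1 and 1 for each of the other 3 genes. The counts are per gene, so they do not tell which Gjb1 start was in use. The promoter windows below run from 250 bases before to 50 bases after a start and are printed as a description. They were chosen for printing with the values of the genes known, and no link between promoter and level was tested. For Gjb1 the start nearest to its coding exon is shown, which is known as the promoter used in nerve. The sequences are RefSeq's (GRCm38.p6), on the strand of the gene. Capitals mark the SOX-type cores ACAAAG and ACAATG and the AP-1 motif TGANTCA, searched on both strands.
Gjb1, chrX:101383482-101383781: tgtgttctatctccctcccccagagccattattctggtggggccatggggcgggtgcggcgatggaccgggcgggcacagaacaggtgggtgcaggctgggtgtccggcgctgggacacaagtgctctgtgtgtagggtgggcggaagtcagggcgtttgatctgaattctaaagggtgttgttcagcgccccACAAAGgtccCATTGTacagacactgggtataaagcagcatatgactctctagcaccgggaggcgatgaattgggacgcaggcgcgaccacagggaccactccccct
Gjc3, chr5:137963049-137963348: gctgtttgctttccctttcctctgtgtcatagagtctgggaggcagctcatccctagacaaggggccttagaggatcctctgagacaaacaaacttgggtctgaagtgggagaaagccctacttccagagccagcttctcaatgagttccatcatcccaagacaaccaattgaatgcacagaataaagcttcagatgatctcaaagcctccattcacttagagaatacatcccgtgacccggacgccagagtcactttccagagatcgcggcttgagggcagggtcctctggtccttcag
Gja1, chr10:56377050-56377349: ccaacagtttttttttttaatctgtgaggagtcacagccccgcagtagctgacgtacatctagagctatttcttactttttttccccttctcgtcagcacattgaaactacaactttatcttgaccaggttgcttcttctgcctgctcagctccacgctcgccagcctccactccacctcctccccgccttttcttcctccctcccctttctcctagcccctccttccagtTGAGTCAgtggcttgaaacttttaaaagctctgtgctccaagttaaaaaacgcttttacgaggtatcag
Gjb6, chr14:57133562-57133861: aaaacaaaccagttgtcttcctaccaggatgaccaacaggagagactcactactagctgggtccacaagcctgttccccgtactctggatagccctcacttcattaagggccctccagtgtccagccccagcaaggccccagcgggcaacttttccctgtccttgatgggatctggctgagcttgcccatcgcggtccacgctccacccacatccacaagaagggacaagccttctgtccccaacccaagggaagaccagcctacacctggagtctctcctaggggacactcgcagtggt
This Gjb1 window holds 1 match to each SOX-type core, beginning at -57 and -47 from the start, the second on the opposite strand. Of the 3 Gjb1 windows not shown, the first holds 1 match to ACAAAG. The Gjc3, Gja1 and Gjb6 windows hold 0 matches to either core, and 28.6% of all 32851 promoter windows of this length hold at least 1. That share is per window, and Gjb1 had 4 windows searched, the other genes 1 each. The Gja1 window holds an AP-1 match at -19, and 7.81% of all windows hold this motif anywhere. SOX10 is a transcription factor of the oligodendrocyte lineage that binds SOX-type cores. A match of letters is a description and does not show binding.

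The 8 libraries held 8790749 to 12021429 counted reads, and 15771 genes passed the expression filter, all 4 connexins among them. The library LAQ 7 stood apart: chi-square values divided by their degrees of freedom reached 23.9 between it and another LAQ library, beside 7.44 to 8.43 among the other LAQ libraries and 4.07 to 5.76 among control libraries. Each pair of libraries thus differed by more than sampling noise. Values per library are CPM, read counts scaled to a common library size after TMM normalization. Myelin RNA stood high in this tissue, with Mbp (myelin basic protein) at 6391 to 8887 CPM, and 14 of 14 listed markers of cortical excitatory neurons passed the filter too.

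Gjb1 was the connexin with the clearest difference in level. Its level was 53.8, 53.2, 53.1 and 58.2 CPM in LAQ 5 to 8, against 46.3, 41.3, 36.6 and 47.7 CPM in control 1 to 4. All 4 LAQ libraries lay above all 4 control libraries, as they did for 2.78% of all tested genes. The means were 54.6 ± 2.45 CPM in LAQ and 43.0 ± 5.03 CPM in control (SD, n = 4 each), a 1.27-fold difference. The log2 fold change was 0.34 ± 0.09 (SE), with a 95% interval of 0.15 to 0.54. By edgeR's quasi-likelihood test the unadjusted p was 0.00262 and the adjusted p over all genes was 0.228, so Gjb1 did not pass. Without LAQ 7 its log2 fold change was 0.35 and its edgeR adjusted p 0.0757, and DESeq2 gave 0.35 with an adjusted p of 0.0869. These were the smallest adjusted p-values of 18 alternative settings of edgeR, DESeq2 or voom, which reached up to 0.558. In a bulk sample, more cells of a type and more RNA per cell cannot be told apart.

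None of the other 3 connexins passed the test either. In all, 0 of the 4 had an edgeR adjusted p under 0.05, against a background of 0% (0 of 15771 genes). At an unadjusted edgeR p under 0.05, 1 connexin was higher (Gjb1, background 4.77%) and 1 was lower (Gjb6, background 6.33%). Only Gjb1 of the 4 had groups that did not overlap, and 2.78% of all tested genes were higher in LAQ without overlap. DESeq2, which called 0.845% of the genes, called 0 of the 4, and so did edgeR without LAQ 7, which called 2.13% (0.736% as higher). With the cortical neuron marker score as a covariate, edgeR called 2.79% of the genes and again 0 of the 4.

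**Figure D1:**
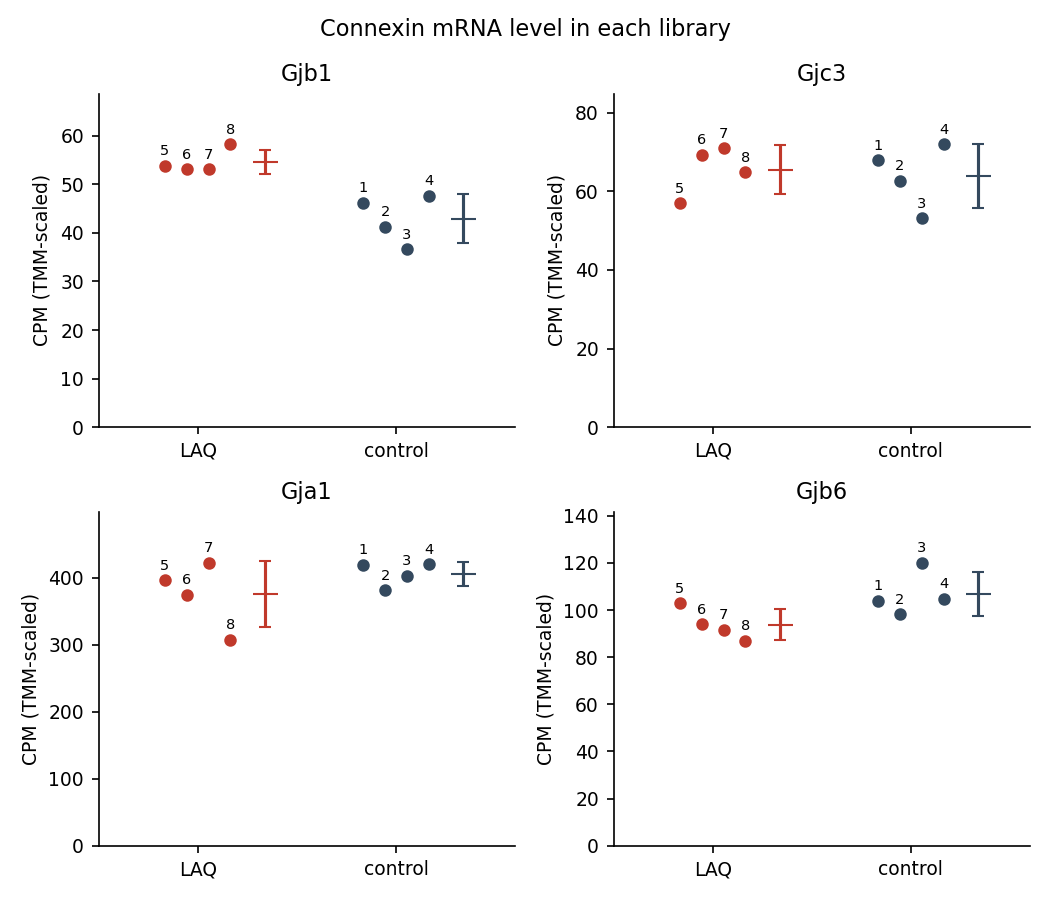
TMM-scaled CPM (y axis, from 0) of the 4 connexin genes in each library, with LAQ 5 to 8 on the left and control 1 to 4 on the right of each panel; numbers name the library and bars give the mean ± SD (n = 4 each). The LAQ points of Gjb1 sit between 53.1 and 58.2 CPM, all above the control points, while the groups of the other 3 genes overlap.

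Gjc3, the other oligodendrocyte member, had a level of 57.0, 69.3, 71.0 and 64.9 CPM in LAQ 5 to 8, against 67.8, 62.7, 53.1 and 71.9 CPM in control 1 to 4. The groups overlapped across most of their range, with the lowest value in control 3 and the highest in control 4. On the log2 scale LAQ differed from control by 0.03 ± 0.10 (SE; edgeR adjusted p = 0.930), with a 95% interval of -0.19 to 0.26. Any difference within that interval remains compatible with these libraries.

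Gjb1 and Gjc3 are counted in the same library, so the ratio of their reads needs no scaling between libraries. There were 0.945, 0.768, 0.748 and 0.897 Gjb1 reads per Gjc3 read in LAQ 5 to 8, against 0.682, 0.659, 0.690 and 0.663 in control 1 to 4. The control ratios lay within a narrow band (0.673 ± 0.0148, SD, n = 4), and every LAQ ratio lay above it (0.839 ± 0.0965, SD, n = 4). Counting alone would give a coefficient of variation of 4.78% for Gjb1 and 3.92% for Gjc3 in control. The control band was narrower than counting error would leave, so its width does not measure how stable the ratio is. On the log2 CPM scale, Gjb1 minus Gjc3 averaged -0.26 ± 0.17 in LAQ and -0.57 ± 0.03 in control (SD, n = 4 each), a shift of 0.31. As a background, 0.399% of the other 15770 tested genes were higher relative to Gjc3 without overlap between the groups. Gjb1 is 1 of those 63 genes. No ratio was tested, since the genes were chosen with their values known.

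**Figure D2:**
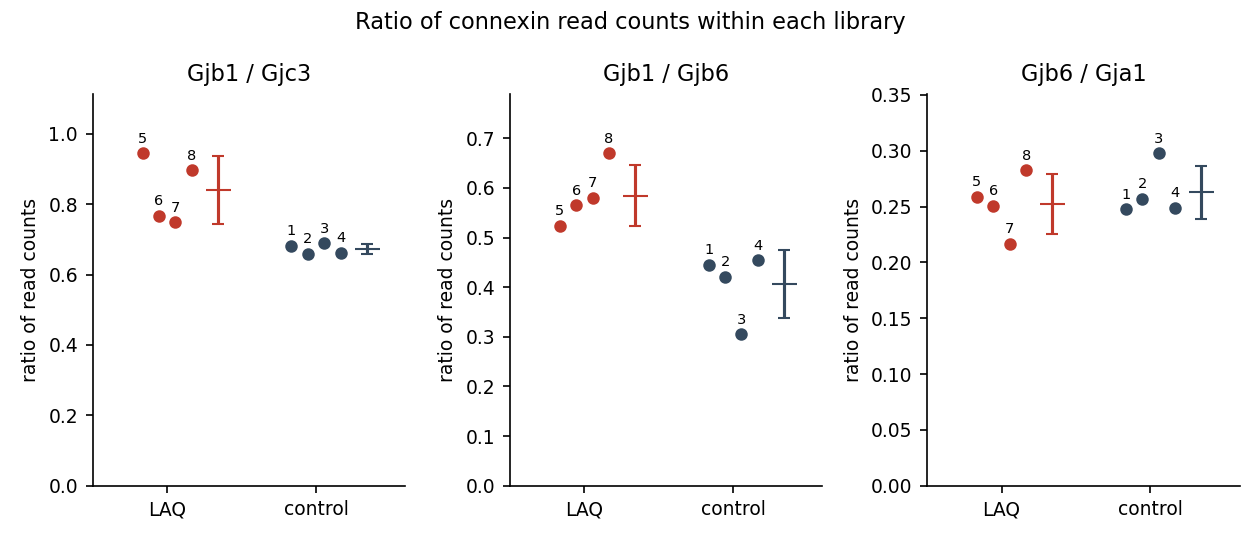
Ratio of read counts within each library (y axis, from 0) for Gjb1 over Gjc3, Gjb1 over Gjb6 and Gjb6 over Gja1, with LAQ 5 to 8 left of control 1 to 4; bars give the mean ± SD (n = 4 each). In the Gjb1 panels every LAQ point lies above every control point, and in the Gjb6 over Gja1 panel the groups overlap.

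Of the astrocyte members, Gja1, the main astrocyte connexin, had a level of 397, 375, 422 and 307 CPM in LAQ 5 to 8, against 420, 382, 403 and 421 CPM in control 1 to 4. LAQ 7 held the highest value and LAQ 8 the lowest, so the LAQ libraries enclosed the control range. Its log2 fold change of -0.11 ± 0.09 (SE) had an edgeR adjusted p of 0.683 and a 95% interval of -0.32 to 0.09. Without LAQ 8 the log2 fold change was -0.03, and without LAQ 7 it was -0.18.

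Gjb6 had a level of 103, 94.0, 91.6 and 86.9 CPM in LAQ 5 to 8, against 104, 98.1, 120 and 105 CPM in control 1 to 4. LAQ 6, 7 and 8 lay below every control library, and LAQ 5 lay above control 2. The log2 fold change was -0.19 ± 0.08 (SE), with a 95% interval of -0.36 to -0.01, an unadjusted p of 0.0405 and an edgeR adjusted p of 0.433, so Gjb6 did not pass. Without control 3, which held the highest level, it stood at -0.12. There were 0.259, 0.251, 0.217 and 0.283 Gjb6 reads per Gja1 read in LAQ 5 to 8, against 0.248, 0.257, 0.298 and 0.249 in control 1 to 4, and these groups overlapped.

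For the docking partners, Gjb1 and Gjb6, there were 0.524, 0.566, 0.580 and 0.670 Gjb1 reads per Gjb6 read in LAQ 5 to 8, against 0.445, 0.421, 0.305 and 0.455 in control 1 to 4. The groups did not overlap, but 13% of the tested genes were higher relative to Gjb6 without overlap, so Gjb1 was 1 of 2043 such genes. This pair was chosen after the values had been seen.

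Per kilobase of the longest annotated coding transcript, Gja1 had the highest level of the 4 genes, at 118 ± 15.5 CPM per kb in LAQ and 128 ± 5.72 in control (SD, n = 4 each). Gjb6 followed with 44.6 ± 3.16 CPM per kb in LAQ and 50.7 ± 4.44 in control, then Gjb1 with 34.4 ± 1.55 in LAQ and 27.1 ± 3.18 in control, and Gjc3 with 16.4 ± 1.56 in LAQ and 16.0 ± 2.03 in control. On this scale no library of one gene reached the range of the next in order. The order of Gja1, Gjb6 and Gjb1 depends on the length taken. With all annotated exons joined, Gja1 stood at 36.6 ± 4.81 CPM per kb in LAQ and 39.6 ± 1.77 in control, and Gjb6 at 35.1 ± 2.49 in LAQ and 39.9 ± 3.50 in control, which did not differ beyond their spread. At this length Gjb1 stood at 32.0 ± 1.44 CPM per kb in LAQ and 25.2 ± 2.95 in control (SD). In LAQ 8 Gjb1 (34.1) lay above Gjb6 (32.5) and Gja1 (30.0), while in LAQ 5, LAQ 6, LAQ 7 and every control library Gjb1 lay below both. This second length was chosen with the values in view.

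Of the reads on all 23 listed connexin and pannexin genes, the 4 genes took 78.6% to 81.2% in LAQ libraries and 79.9% to 81.3% in control libraries. Gjb1 took 6.76% (95% Wilson interval 6.27% to 7.28%) in the LAQ library where its share was lowest, and 5.90% (5.45% to 6.39%) in the control library where it was highest. Such intervals cover counting error only. The reads on Gjb1 numbered 320 to 645 per library, those on Gjc3 464 to 869, on Gja1 2957 to 5130 and on Gjb6 836 to 1267. Counting alone would give Gjb1 a coefficient of variation of 4.12% in LAQ and 4.78% in control, beside the observed 4.49% in LAQ and 11.7% in control. For Gja1 counting would give 1.56% in each group, beside 13.1% observed in LAQ and 4.48% in control.

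Of the 19 other connexin and pannexin genes, 11 lay below the filter with at most 11 reads in a library, 3 of them at 0 in all libraries. The remaining 8 were tested, 0 passed in either direction, 2 had a positive and 6 a negative log2 fold change, and their median was -0.13, beside -0.00 over all tested genes. That median was -0.20 without control 2, -0.08 without control 4 and -0.26 without LAQ 7. Gjc1 (Cx45), a connexin of vascular wall cells and of some neurons, had a level of 6.95, 2.07, 6.34 and 6.24 CPM in LAQ 5 to 8, against 8.12, 8.02, 8.69 and 12.2 CPM in control 1 to 4. Every LAQ library lay below every control library (background 3.61% for genes lower without overlap), with a log2 fold change of -0.78 ± 0.30 (SE) and an edgeR adjusted p of 0.372. Its lowest value came from LAQ 6, which also had the lowest endothelial marker score (4.39 mean log2 CPM). That score was 4.91, 5.41 and 5.13 in LAQ 5, 7 and 8, against 5.08, 5.23, 5.20 and 5.41 in control 1 to 4. The groups thus overlapped in this score, while they did not in Gjc1. The part of the endothelial markers in Gjc1 was not tested.

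Panx2, a pannexin of neurons, was the other gene of this list whose groups did not overlap. Panx2 stood at 41.3, 44.9, 42.2 and 40.7 CPM in LAQ 5 to 8, against 47.2, 48.6, 45.9 and 48.0 CPM in control 1 to 4, a log2 fold change of -0.16 ± 0.07 (SE) and an edgeR adjusted p of 0.420. Gja5 (Cx40), an arterial endothelial connexin, was barely expressed, at 0.54 to 1.33 CPM in LAQ and 0.78 to 2.01 CPM in control, with a log2 fold change of -0.96 ± 0.40 (SE). Gja4 (Cx37), also of arterial endothelium, stood at -0.10 ± 0.32, the neuronal connexin Gjd2 (Cx36) at -0.28 ± 0.24, Panx1 at -0.02 ± 0.10, and Gjb2 (Cx26), a connexin of leptomeningeal cells and astrocytes, at 0.01 ± 0.25 (SE). Gjb2 was highest in LAQ 5 (13.5 CPM) and control 4 (11.2 CPM), which also held the highest leptomeningeal marker scores of their groups.

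**Figure D3:**
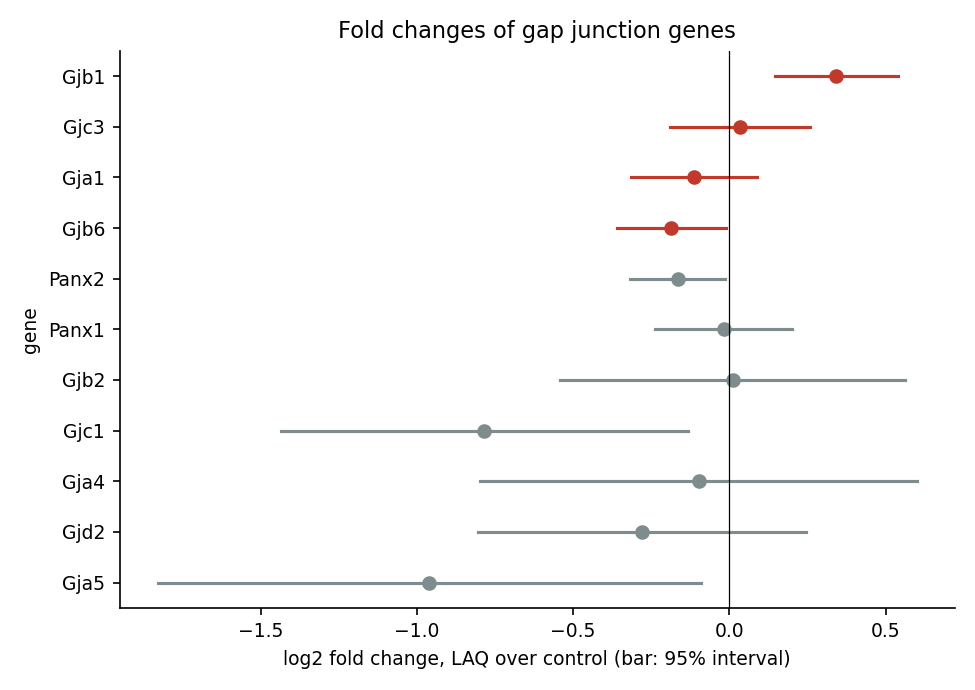
Log2 fold change of LAQ over control (x axis) for the 4 connexin genes (top, red) and 7 other tested gap junction genes (grey, ordered by mean level); points are edgeR estimates and bars are 95% intervals. The interval of Gjb1 runs from 0.15 to 0.54, while those of Gjc3 and Gja1 include 0. Those of Gjb6, Gjc1, Gja5 and Panx2 lie below 0. None of the 11 genes has an edgeR adjusted p under 0.05.

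The markers of mature oligodendrocytes stood in the same direction as Gjb1. All 20 were positive on the log2 scale (median 0.20), 0 passed edgeR's test in either direction, and 2 were higher without overlap between the groups, against 2.78% of all tested genes. At an unadjusted edgeR p under 0.05, 10 of the 20 were higher, against 4.77% of all tested genes. Their summed level was 13876 to 18094 CPM in LAQ libraries and 13081 to 14915 CPM in control libraries. The smallest p-values belonged to Tspan2, a tetraspanin (0.35 ± 0.08, SE), Opalin, a myelin glycoprotein (0.29 ± 0.09), Cnp, a myelin phosphodiesterase (0.21 ± 0.07), and Aspa, which breaks down N-acetylaspartate (0.33 ± 0.12). Subtracting the mean log2 CPM of these 20 markers from that of Gjb1 gave -1.73, -1.65, -1.95 and -1.68 in LAQ 5 to 8, against -1.82, -1.92, -2.05 and -1.79 in control 1 to 4. Relative to the markers the groups thus overlapped, since LAQ 7, which had the highest marker score (7.69) of all libraries, had a Gjb1 level like those of LAQ 5 and 6. For Gjc3 the same subtraction gave -1.64, -1.27, -1.53 and -1.52 in LAQ 5 to 8, against -1.27, -1.32, -1.52 and -1.20 in control 1 to 4, also with overlap. With the oligodendrocyte score as a covariate in edgeR, the log2 fold change was 0.24 ± 0.13 (SE) for Gjb1 (adjusted p = 0.333) and -0.12 ± 0.14 (SE) for Gjc3 (adjusted p = 0.700). The marker scores of the groups did not overlap (7.39 to 7.69 in LAQ, 7.26 to 7.37 in control), so this fit cannot fully separate score from treatment. The part of the marker level in the Gjb1 difference was not tested beyond these values.

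Precursor markers were split in direction. Of the 9 tested, 4 were positive and 5 negative, with a median of -0.08 and 0 passing. The sign of that median rests on LAQ 8, without which it was 0.0065, and it was -0.15 without control 2 or LAQ 7, -0.03 without control 3 or control 4 and -0.0079 without LAQ 6. C1ql1, a complement-like secreted protein, had the smallest p at 0.24 ± 0.12 (SE). Gpr17, a receptor of committed precursors, stood at -0.21 ± 0.11, Vcan, a matrix proteoglycan, at 0.23 ± 0.15, and Pdgfra, a growth factor receptor, at -0.18 ± 0.15 (SE).

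Among the 16 astrocyte markers, 12 had a negative and 4 a positive log2 fold change, with a median of -0.11 (-0.07 without LAQ 8), and 0 passed edgeR's test. Their summed level was 6558 to 7126 CPM in LAQ libraries and 6830 to 7340 CPM in control libraries. Atp1b2, a sodium pump subunit, stood at -0.22 ± 0.07 (SE), the glutamate transporter Slc1a2 at -0.16 ± 0.07, the growth factor receptor Fgfr3 at -0.19 ± 0.09, and Gfap, the astrocyte intermediate filament, at 0.28 ± 0.15. Relative to the mean log2 CPM of these markers, Gja1 stood at 0.61, 0.45, 0.59 and 0.29 in LAQ 5 to 8, against 0.55, 0.51, 0.53 and 0.56 in control 1 to 4. Gjb6 stood at -1.33, -1.54, -1.62 and -1.53 in LAQ 5 to 8, against -1.46, -1.45, -1.22 and -1.45 in control 1 to 4. The groups overlapped for each of them. With the astrocyte score as a covariate the log2 fold change was 0.02 ± 0.09 (SE) for Gja1 (edgeR adjusted p = 0.968) and -0.17 ± 0.10 (SE) for Gjb6 (adjusted p = 0.728).

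**Figure D4:**
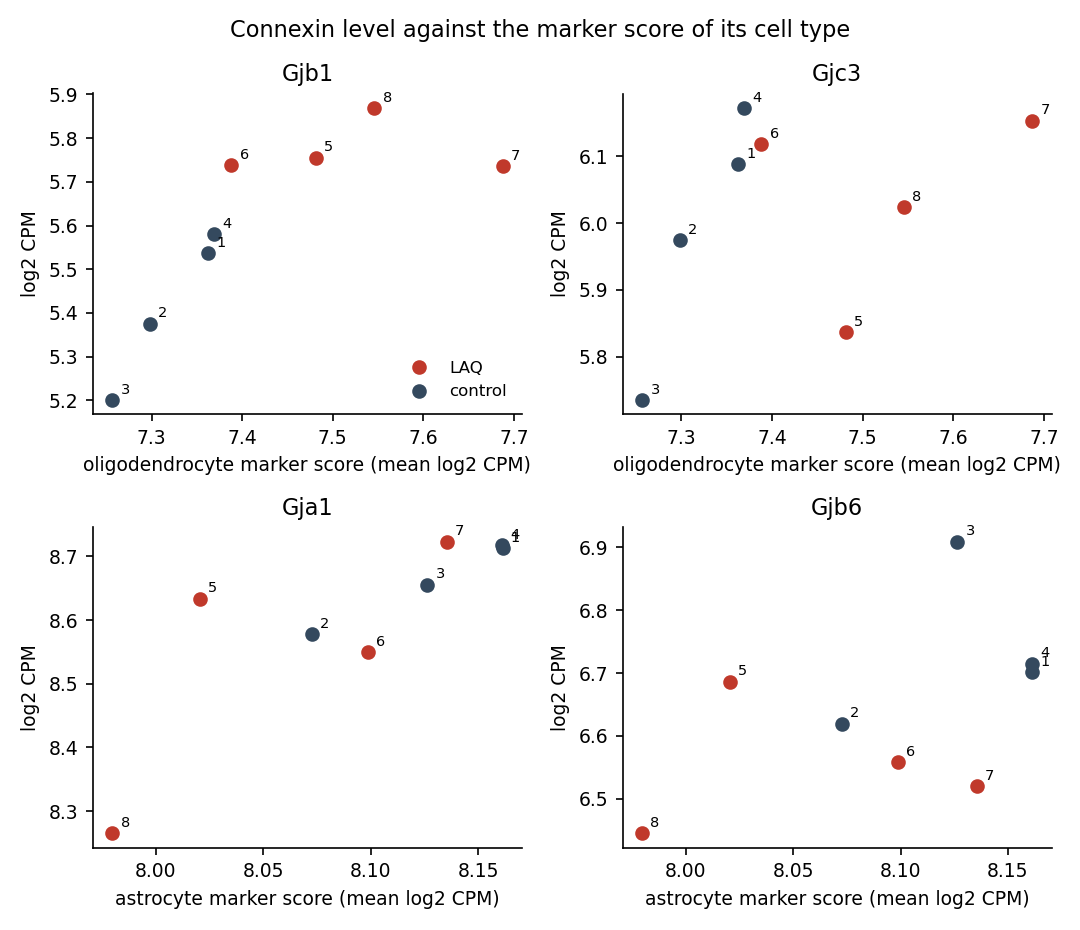
Log2 CPM of each connexin (y axis) against the mean log2 CPM of the marker list of its cell type (x axis) in the 8 libraries, with LAQ in red and control in dark blue; numbers name the library. In the Gjb1 panel the 4 LAQ libraries lie above the 4 control libraries on both axes, and in the Gjc3 panel LAQ 5 and control 3 lie lowest.

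Of 17 genes that handle potassium, water and glutamate in glia, the work that the gap junction network shares in, 12 had a negative and 5 a positive log2 fold change, with a median of -0.09 and 0 passing edgeR's test. The median was -0.06 without LAQ 6 or LAQ 8 and -0.14 without LAQ 7. Atp1b2 and Slc1a2 are members of this list too. Kcnj16, an inward rectifier potassium channel, stood at -0.24 ± 0.09 (SE). Of 18 partners and scaffolds of connexins, 7 were positive and 11 negative, with a median of -0.02 and 0 passing. That median was 0.01 without control 4 and 0.03 without LAQ 8, and between -0.01 and -0.0035 without control 1, control 3 or LAQ 6. Among those with the smallest p-values were the chloride channel Clcn2 (-0.15 ± 0.08, SE), the matricellular protein Nov (-0.37 ± 0.20) and the ubiquitin ligase Nedd4 (0.10 ± 0.07).

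Other cell types were followed by their markers, none of which was at 0 in all libraries. All 10 tested ependymal markers were positive on the log2 scale (median 0.58, 0 passing), with summed levels of 78.8 to 93.4 CPM in LAQ and 51.6 to 68.7 CPM in control, led by Tmem212 (0.75 ± 0.20, SE), Foxj1 (0.64 ± 0.19), Dynlrb2 (0.91 ± 0.27) and Tekt1 (0.84 ± 0.27). Of 12 leptomeningeal markers 8 were negative (median -0.25, 0 passing), with sums of 128 to 273 CPM in LAQ and 164 to 295 CPM in control, and the matrix genes Fmod (-0.61 ± 0.30, SE), Col1a2 (-0.44 ± 0.22) and Dcn (-0.43 ± 0.23) and the transporter Slc22a6 (-0.56 ± 0.35) led. Of 12 endothelial markers 11 were negative (median -0.20, 0 passing), with sums of 346 to 685 CPM in LAQ and 549 to 678 CPM in control, led by the transporters Abcb1a (-0.58 ± 0.24, SE) and Slco1a4 (-0.30 ± 0.14) and by the junction proteins Esam (-0.42 ± 0.20) and Pecam1 (-0.36 ± 0.23). Of 12 microglia markers 10 were negative (median -0.10, 0 passing), led by Trem2 (-0.32 ± 0.14, SE), Aif1 (-0.26 ± 0.12), Cx3cr1 (-0.18 ± 0.11) and Fcrls (-0.30 ± 0.21). Of 14 cortical neuron markers 10 were negative (median -0.15, 0 passing), led by Cux2 (-0.76 ± 0.15, SE), Mef2c (-0.42 ± 0.10), Rorb (-0.41 ± 0.13) and Lamp5 (-0.31 ± 0.10). Several of these medians rest on single libraries. The leptomeningeal median was -0.05 without LAQ 6, -0.09 without control 4, and -0.44, -0.39 and -0.38 without LAQ 5, control 3 and LAQ 7 in turn. The endothelial median was -0.07 without LAQ 6 and -0.34 without LAQ 7, and the cortical neuron median -0.25 without LAQ 6 and -0.09 without LAQ 7. The microglia median was -0.04 without LAQ 5. The part of these cells in the connexin values was not tested.

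Over the 8 libraries, the 3 genes whose log2 CPM was most like that of Gjb1, out of 9062 candidates, were Cers2, which makes the very-long-chain ceramides of myelin (Pearson r = 0.97), Aif1l (r = 0.96) and Tmem125 (r = 0.96). Cers2 averaged 171 CPM in LAQ and 143 CPM in control, a log2 fold change of 0.25 ± 0.08 (SE). For Gjc3 they were Maoa, a monoamine oxidase (r = 0.94), Zbtb14 (r = 0.93) and Fto, an RNA demethylase (r = 0.93). Maoa averaged 43.8 CPM in LAQ and 44.8 CPM in control. For Gja1 they were Zfp287 (r = 0.98), Fam53b (r = 0.96) and Slc17a6, a vesicular glutamate transporter of neurons (r = 0.96), and for Gjb6 they were Jmjd1c (r = 0.97), Gon4l (r = 0.96) and Rere (r = 0.94). These values describe 8 libraries of 1 tissue, in which both genes of a pair share the library, its depth and its scaling. The named genes are the highest of 9062 candidates, so part of each high r comes from that choice. Among the 4 connexins, r was 0.49 between Gjb1 and Gjc3, 0.57 between Gja1 and Gjb6 and -0.81 between Gjb1 and Gjb6. It was -0.59 between Gjc3 and Gjb6, -0.43 between Gjb1 and Gja1 and 0.09 between Gjc3 and Gja1. Every r here was taken over both groups together, so differences between the groups enter it.

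Across 18 alternative settings the log2 fold change of Gjb1 stayed positive (0.24 to 0.40) and that of Gjb6 negative (-0.23 to -0.09), and neither passed the threshold in any. Gjc3 changed sign in 4 settings and Gja1 in 1. None of the 4 genes was called under any of them.

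**Figure D5:**
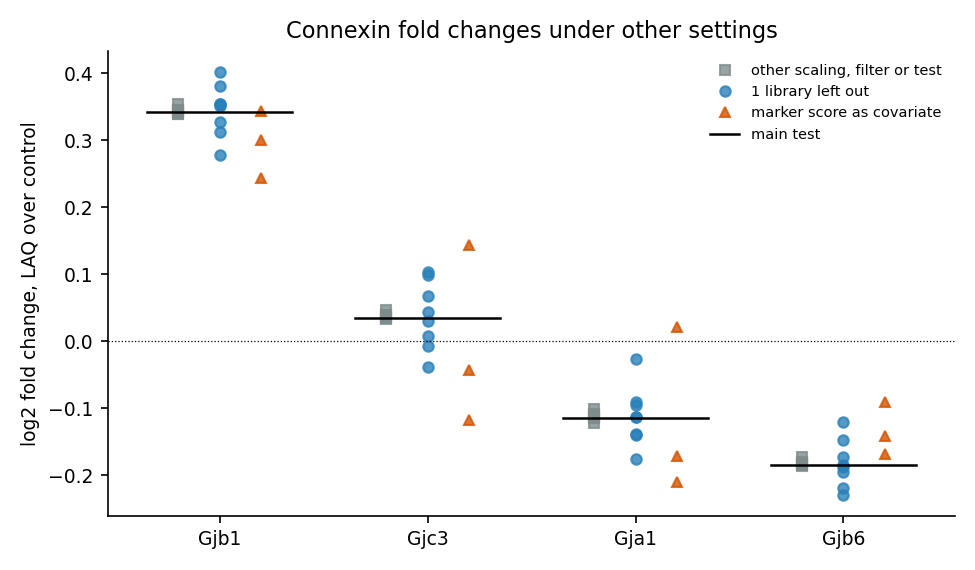
Log2 fold change of LAQ over control (y axis) of the 4 connexin genes in the main test (black line) and under other scalings, filters or tests (grey squares), with 1 library left out (blue circles) and with a marker score as covariate (orange triangles). All Gjb1 values lie between 0.24 and 0.40, while those of Gjc3 lie on both sides of 0.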

How the data were processed

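The authors' main table gives raw counts, whole numbers of reads per gene symbol whose totals differ between libraries. Their other deposited table is a normalized signal. It equals those counts after division by a constant for each library (largest relative deviation 5.1e-15), and served only for that check. Per the submitters' processing notes, the tools were STAR 2.5.2b, HTSeq, bcl2fastq 2.17.1.14 and DESeq2 1.10.1, on the build GRCm38.p3. For the annotation release and strand setting, nothing is stated in the labels or headers, and 0 columns were left unused. The design text speaks of 4 mice per group.

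Genes were kept by filterByExpr (minimum count 10, minimum total 15) and the main test of LAQ against control was the quasi-likelihood one of edgeR 4.0.16 (run in R 4.3.3 with limma 3.58.1) on all 8 libraries, with TMM scaling, no covariate and Benjamini-Hochberg adjustment over 15771 genes (threshold 0.05, two-sided). Standard errors are the absolute log2 fold change divided by the square root of F, and log2 CPM used a prior count of 2. A 95% interval is that standard error times the t quantile at the fit's total degrees of freedom. Depth was 8790749 to 12021429 reads per library, which left 320 or more reads on each connexin.

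The members and lists were chosen with earlier results of these data known. Of 156 distinct listed genes, 154 were found and 143 tested. Named were the 4 members, every other tested connexin or pannexin, up to 4 genes of smallest p per list, and per member the 3 established genes (mean log2 CPM of at least 4) with the highest Pearson correlation. A few listed genes that this rule names are counted in their lists but are not reported here. A marker score is the mean log2 CPM of a list. Lengths came from GENCODE M21 and promoter windows from RefSeq, where 4 of the 4 members matched. Alternatives covered scaling, filters, DESeq2 1.42.0, voom, robust edgeR, 3 marker scores as covariates, and leaving out each library. The edgeR step was tested on simulated counts. Figures were drawn with matplotlib 3.10.9.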

Additional observations from a re-analysis of the deposited data

Results flagged for a closer look

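Of 108 sets of 4 libraries examined, 6 held a library whose gap to its nearest neighbour, relative to the range, was above Dixon's 95% critical value for 4 samples, which chance exceeds in about 1 set in 20. Gjb1 stood at 58.2 CPM in LAQ 8, above 53.1 to 53.8 CPM in the other LAQ libraries. On the log2 CPM scale Gjb6 minus the astrocyte marker score was -1.22 in control 3, above -1.46 to -1.45 in the other control libraries. Gjc1 stood at 2.07 CPM in LAQ 6, below 6.24 to 6.95 CPM in the other LAQ libraries, and at 12.2 CPM in control 4, above 8.02 to 8.69 CPM in the other control libraries. Cux2 stood at 31.5 CPM in control 3, below 42.1 to 43.9 CPM in the other control libraries, and Fmod at 31.3 CPM in control 4, above 16.0 to 18.3 CPM there.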

How the results depend on the processing

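Gjb1 and Gjb6 kept their direction and their side of the threshold under all 18 alternatives, at log2 fold changes of 0.24 to 0.40 for Gjb1 (adjusted p 0.0757 to 0.558) and -0.23 to -0.09 for Gjb6 (adjusted p 0.279 to 0.729). Leaving out 1 library at a time gave 0.28 to 0.40 for Gjb1, -0.04 to 0.10 for Gjc3, -0.18 to -0.03 for Gja1 and -0.23 to -0.12 for Gjb6. Gjc3 turned negative without control 3 (-0.038) and without LAQ 7 (-0.0069), and with the oligodendrocyte (-0.12) or cortical neuron score (-0.044) as covariate. Gja1 turned positive with the astrocyte score as covariate (0.022). None of these values passed the threshold, and the cause of the sign changes was not tested. The number of genes called over the whole table was 0 in the main edgeR test, with 1750 genes at an unadjusted p under 0.05. It was 25 without an expression filter, 129 with DESeq2, 645 with the oligodendrocyte score and 440 with the cortical neuron score as covariate, and 0 to 339 when 1 library was left out, the 339 without LAQ 7. Of 198 list medians recomputed, 184 moved by less than the spread between libraries, though several of those moved by over 1.5 times, as given beside the lists. Of the 14 that moved by more, 13 came from a marker score as covariate. With the oligodendrocyte score they were the oligodendrocyte (-0.015), cortical neuron (0.030), partner (0.041), endothelial (-0.76) and other connexin and pannexin medians (-0.43). With the cortical neuron score they were the oligodendrocyte (0.054), cortical neuron (0.024), partner (0.034) and endothelial medians (-0.62), and with the astrocyte score the astrocyte (-0.029), precursor (0.11), partner (0.026) and potassium, water and glutamate medians (-0.021). The other was the partner median without LAQ 8 (0.032). No paired analysis was possible because the labels give no pairing or batch. Depth limits Gjb1 most of the 4 connexins, with as few as 320 reads in a library.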
